A study of Mus musculus with 6 samples.

Results

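The 10 hepatocyte ABC transporter genes followed in mouse liver were Abcb11, Abcb4, Abcb1a, Abcc2, Abcc3, Abcc4, Abcg2, Abcg5, Abcg8 and Abca1. They were taken by symbol after the Ensembl identifiers of the count table were paired with gene names. All 10 of the 10 named genes were found among 34866 identifiers, and all 10 passed the filter on low counts. The livers came from 8-week-old male C57BL/6 mice. The 3 vehicle samples carry the treatment label untreated, although a vehicle is named in their titles and in the series design. The other group of 3 was treated with iD1, which the labels give by code name alone, and a drug was given by intraperitoneal injection. No genetic alteration is named in either group, and for dose, exposure time and target the sources used here give no value. The labels do not say that each library came from its own animal, so p-values measure only the spread between these samples, which may be technical.

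ABC transporters are membrane pumps that use ATP to move substrates out of a cell. In hepatocytes some sit in the canalicular membrane and load bile with bile salts, phospholipid, sterols and conjugated waste, and others sit in the sinusoidal membrane and return conjugates to blood. Bile salts are detergents, and the phospholipid that is exported beside them protects the biliary tree. Nuclear receptors that sense bile acids, oxysterols and foreign compounds (FXR, LXR, PXR and CAR) are known to control several of these genes.

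Library totals ran from 23515571 to 37613549 estimated counts. Mitochondrially encoded genes held between 10.6% and 13.6% of the counts in vehicle and between 8.68% and 10.3% in iD1 libraries. The 5 hepatocyte markers (Alb, Apoa1, Ttr, Serpina1a and Cyp3a11) summed to 73513 to 96660 CPM (counts scaled to a common library size with TMM factors) in vehicle and 89817 to 100448 CPM in iD1 libraries, so the liver label is matched by its defining markers. In bulk tissue, fewer cells of a type and less RNA per cell cannot be told apart. Over the members, iD1 replicate 3 was the highest iD1 library for 8 of 10 genes and vehicle replicate 2 the highest vehicle library for 8 of 10.

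Promoter stretches are shown for the members whose results contrast most: the bile salt pump gene that fell, the divergent gene pair that was higher, and the cholesterol exporter whose level differed little. Sequences are from RefSeq on GRCm38.p6, where 9 of the 10 members had a promoter window (not Abcc3). The Abcb11 and Abca1 stretches are the 250 bases before the transcription start, at chr2:69342617-69342866 and chr4:53159896-53160145, both on the minus strand. The third is the 109-base stretch between the starts of Abcg5 and Abcg8 at chr17:84683012-84683120, read on the plus strand towards Abcg8.
Abcb11: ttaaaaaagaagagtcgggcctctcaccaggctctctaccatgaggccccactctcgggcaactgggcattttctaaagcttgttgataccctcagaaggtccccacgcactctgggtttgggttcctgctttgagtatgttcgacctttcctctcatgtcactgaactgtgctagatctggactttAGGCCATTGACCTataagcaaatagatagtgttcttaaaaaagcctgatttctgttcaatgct
Abca1: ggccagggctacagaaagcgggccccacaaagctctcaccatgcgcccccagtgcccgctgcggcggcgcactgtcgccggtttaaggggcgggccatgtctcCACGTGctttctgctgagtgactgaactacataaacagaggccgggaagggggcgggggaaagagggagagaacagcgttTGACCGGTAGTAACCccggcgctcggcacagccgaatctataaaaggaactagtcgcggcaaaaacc
Abcg5 to Abcg8: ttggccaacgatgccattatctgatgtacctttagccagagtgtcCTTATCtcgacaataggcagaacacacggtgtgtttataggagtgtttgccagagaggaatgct

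Capitals mark letters matched by patterns that were chosen after these sequences had been read, on both strands. In Abcb11 they mark an inverted repeat of the FXR type (AGGNCA, any base, then TGACCT), from base -63 to -51 relative to the start, whose last bases are also the nuclear receptor motif AGGTCA on the other strand. The inverted repeat was found in 0.0365% of 32851 mouse promoter windows of 300 bases, and in no other window of the members. In Abca1 the capitals mark a direct repeat of the LXR type (GGTNA, 5 bases of any kind, then GGTCA, on the other strand, bases -67 to -53), present in 0.207% of windows, and an E box (CACGTG, bases -147 to -142), present in 7.15%. In the stretch between Abcg5 and Abcg8 they mark the GATA motif GATAAG on the other strand, present in 7.44% of windows. Windows of Abcb4, Abcc2 and Abcg2 also held GATAAG, those of Abcc2 and Abcg2 held AGGTCA, which is in 16.3% of windows, and one of Abcc4 held the E box. A match is a description of letters and not a binding site.

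The question was which transporter transcripts differ between iD1-treated and vehicle livers. The bile salt pump gene Abcb11 fell to 0.462 of its vehicle level. The phospholipid transporter gene Abcb4 rose 1.73-fold, and the sterol transporter genes Abcg8 and Abcg5 rose 2.83-fold and 2.04-fold. The other 6 members did not pass the test, and among these Abcc2 came closest. By the edgeR quasi-likelihood test, adjusted by Benjamini-Hochberg over 13718 genes with a threshold of 0.05, 3 members were higher and 1 lower. Over all tested genes 16.7% were called, 8.42% higher (1155 genes) and 8.3% lower (1138 genes). Of all calls 50.4% were higher, against 38.4% under upper-quartile scaling and 24.1% when only library size was used, where the median gene had a log2 fold change of -0.20. No member changed sign under these scalings. The median log2 fold change of the 10 members was 0.46, beside 0.00 over all tested genes. Groups did not overlap for 5 of the 10 members and for 37.2% of all tested genes, and an unadjusted p under 0.05 was found for 5 of the 10 and for 31.3%.

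**Figure D1:**
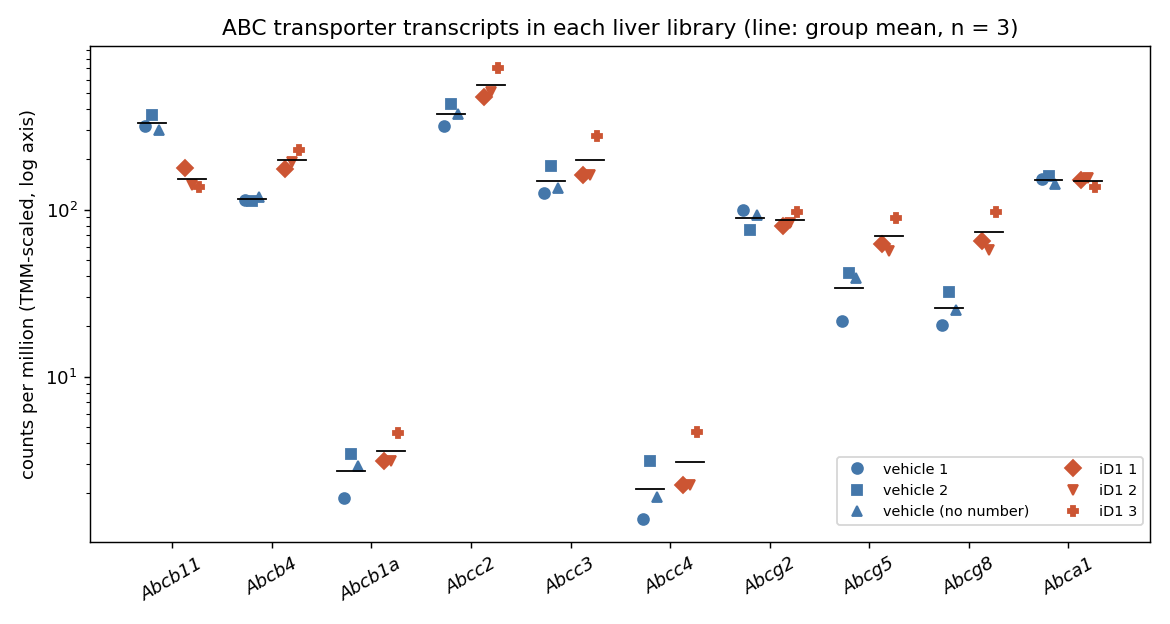
TMM-scaled CPM (log axis) of the 10 transporter genes in each of the 3 vehicle libraries (blue) and 3 iD1 libraries (orange), with group means as lines. The groups do not overlap for Abcb11, Abcb4, Abcc2, Abcg5 and Abcg8, and Abcb1a and Abcc4 lie below 5 CPM in every library.

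Abcb11 (ENSMUSG00000027048.15), the canalicular pump for bile salts, lies on chromosome 2 from 69238282 to 69342616 on the minus strand. Its level was 315 CPM in vehicle replicate 1, 370.3 CPM in vehicle replicate 2 and 299 CPM in the vehicle replicate without a number. In the iD1 libraries it was 177, 141 and 137 CPM. Every iD1 library was below every vehicle library, and iD1 replicate 1 was the nearest to the vehicle range. The log2 fold change was -1.11 (SE 0.15, edgeR adjusted p = 0.00198). It stayed called without each of the 6 libraries, with an adjusted p of at most 0.0116, and under all 11 other settings tried. These levels rest on 2949 to 15378 counts per library. Exons of Abcb11 share 136 bases with the antisense gene Gm13613 and 19 with the processed pseudogene Gm13614, both on the other strand. The library kit was stranded, but the sources used here do not say whether counting used strand.

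Abcb4 (ENSMUSG00000042476.12), the floppase that moves phosphatidylcholine into bile, lies on chromosome 5 from 8893717 to 8959231. Its level was 114, 113 and 119 CPM in the vehicle libraries, which differed little from each other. In the iD1 libraries it was 175, 193 and 227 CPM. All 3 iD1 values were above the vehicle values. The log2 fold change was 0.79 (SE 0.13, edgeR adjusted p = 0.00482), and it stayed called without each of the 6 libraries, with an adjusted p of at most 0.0241. Of the 50-base words of its longest transcript, 3.42% also occur in transcripts of other genes, mostly Abcb1a.

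The ratio of Abcb4 to Abcb11 sets the opposite changes of the phospholipid and bile salt transporter transcripts side by side within a library. On the log2 scale of CPM it was -1.47, -1.72 and -1.33 under vehicle, against -0.02, 0.46 and 0.73 under iD1. In CPM, without regard to gene length, Abcb4 was the lower of the pair in every vehicle library, and in iD1 replicates 2 and 3 it was the higher. Per kilobase of merged exons Abcb4 was the lower in every library, at 18.7, 20.6 and 24.2 against 34.4, 27.3 and 26.6 under iD1. Per kilobase of longest transcript its iD1 mean was the higher (48.7 against 30.2), so their order under iD1 depends on the length used. The mean difference of the log2 ratio between the groups was 1.90, a 3.73-fold change of the ratio, and it does not depend on scaling. The exact two-sided permutation test gave p = 0.1, the smallest that 3 against 3 can give, and 0.2 after adjustment over 4 ratios. Leaving out 1 library at a time gave differences from 1.73 to 2.10.

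**Figure D2:**
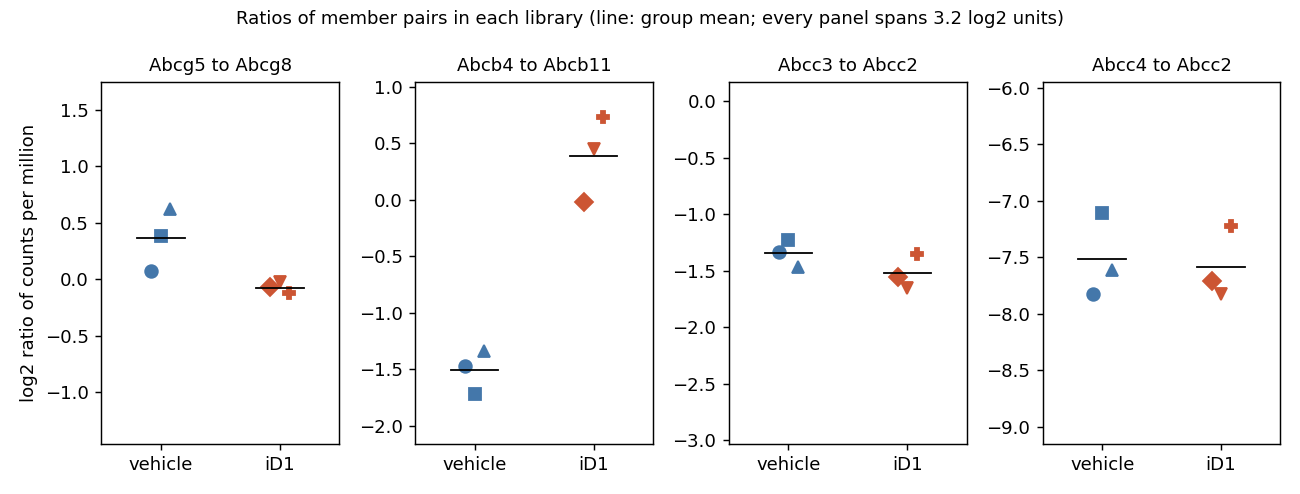
Log2 ratio of CPM for 4 pairs of members in each vehicle (blue) and iD1 (orange) library, with group means as lines and the same span of log2 units in every panel. The Abcb4 to Abcb11 ratio lies between -1.72 and -1.33 in vehicle libraries and between -0.02 and 0.73 in iD1 libraries, and the Abcc ratios overlap between the groups.

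Abcg5 and Abcg8 encode the partners of an obligate heterodimer that exports cholesterol and plant sterols into bile. The genes stand head to head on chromosome 17, Abcg5 (ENSMUSG00000040505.13) from 84658234 to 84683011 on the minus strand and Abcg8 (ENSMUSG00000024254.15) from 84676302 to 84700333 on the plus strand. Abcg8 measured 20.4, 31.9 and 25.2 CPM under vehicle, against 65.1, 57.6 and 97.3 CPM under iD1. The lowest iD1 value was well above the highest vehicle value. Its log2 fold change was 1.50 (SE 0.23, edgeR adjusted p = 0.00456), the largest of the 10 members by size, and it stayed called without each library, with an adjusted p of at most 0.0277.

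Abcg5 measured 21.5, 41.7 and 38.8 CPM under vehicle, against 61.9, 56.5 and 89.5 CPM under iD1. The groups did not overlap, and vehicle replicate 1 was well below the other vehicle libraries. Its log2 fold change was 1.03 (SE 0.28), and the edgeR adjusted p of 0.0457 lay close to the threshold. Without vehicle replicate 2 the adjusted p was 0.0653, without the unnumbered vehicle replicate 0.0995, and without iD1 replicates 1, 2 and 3 it was 0.0755, 0.0734 and 0.121, so each of these ended the call. It held without vehicle replicate 1 (adjusted p = 0.0455), with DESeq2 (adjusted p = 7.00e-04) and with limma-voom (0.0276), and was lost with upper-quartile factors (0.0518), library size only (0.0674) or no filter on low counts (0.146). The log2 fold change without 1 library ran from 0.78 to 1.20.

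The log2 ratio of Abcg5 to Abcg8 in CPM was 0.08, 0.39 and 0.62 under vehicle, against -0.07, -0.03 and -0.12 under iD1. Without regard to gene length, Abcg5 had the higher CPM in every vehicle library and Abcg8 in every iD1 library. Per kilobase of merged exons Abcg5 was the higher in every library. Under iD1 it had 22.8, 20.8 and 33.0 CPM per kilobase, against 17.4, 15.4 and 25.9 for Abcg8. The mean difference of the log2 ratio between the groups was -0.43 (exact two-sided permutation p = 0.1, the smallest possible, and 0.2 after adjustment over 4 ratios). In the annotation the exons of the pair share 82 bases on opposite strands, and some annotated Abcg8 transcripts start inside Abcg5.

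Abca1 (ENSMUSG00000015243.4, chromosome 4 from 53030787 to 53159895) passes cholesterol and phospholipid to apolipoprotein A-I in the first step of HDL formation. It measured 152, 158 and 143 CPM under vehicle, against 151, 155 and 136 CPM under iD1. The groups overlapped almost fully. The log2 fold change was -0.04 (SE 0.12, edgeR adjusted p = 0.868), with a 95% interval from -0.30 to 0.23, or 0.812-fold to 1.17-fold. A rise of the size fitted for Abcg8 lies outside that interval, although no test of the difference between the genes was made.

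Abcc2 (ENSMUSG00000025194.5, chromosome 19 from 43782192 to 43840740) is the canalicular pump for conjugated bilirubin, glutathione conjugates and other organic anions. It measured 316, 429 and 371 CPM under vehicle, against 472, 507 and 699 CPM under iD1. The groups did not overlap. The log2 fold change was 0.59 (SE 0.19) and the edgeR adjusted p was 0.0629, so it was not called. DESeq2 called it (adjusted p = 0.0138), as did the fit without a filter on low counts (0.0361) and the fit without iD1 replicate 1 (0.0401). The first 2 were the only calls among 11 settings other than leaving out 1 library. Limma-voom (adjusted p = 0.0608), upper-quartile factors (0.0868) and library size only (0.18) were among those that did not call it. Over the alternatives that leave out 1 library its adjusted p ran from 0.0401 to 0.222.

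Abcc3 and Abcc4 are basolateral pumps that can return conjugates and bile salts from hepatocytes to blood. Abcc3 (ENSMUSG00000020865.16, chromosome 11 from 94343295 to 94392997) measured 126, 183 and 134 CPM under vehicle, against 160.5, 161 and 274 CPM under iD1. Its log2 fold change was 0.43 (SE 0.24, edgeR adjusted p = 0.254, 95% interval -0.11 to 0.97). The groups overlapped, and iD1 replicate 3 alone was above every vehicle library. Without that library the log2 fold change was 0.13, and the range over the 6 libraries left out in turn was 0.13 to 0.61.

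Abcc4 (ENSMUSG00000032849.14, chromosome 14 from 118482692 to 118706219) was the lowest member per length. It measured 1.40, 3.11 and 1.90 CPM under vehicle, against 2.26, 2.23 and 4.69 CPM under iD1, from 42 to 129 counts per library. The groups overlapped. The log2 fold change was 0.49 (SE 0.38, edgeR adjusted p = 0.416, 95% interval -0.37 to 1.35), an interval that holds a 2-fold rise and a fall alike. Without iD1 replicate 3 the log2 fold change was 0.06, without vehicle replicate 1 it was 0.27 and without vehicle replicate 2 it was 0.88. The log2 ratio of Abcc3 to Abcc2 differed by -0.17 between the groups (exact permutation p = 0.2) and that of Abcc4 to Abcc2 by -0.07 (exact permutation p = 0.7), with adjusted values of 0.267 and 0.7 over 4 ratios.

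Abcg2 and Abcb1a are efflux pumps with broad drug substrates, and Abcg2 also carries urate. Abcg2 (ENSMUSG00000029802.13, chromosome 6 from 58584523 to 58695676) measured 98.7, 75.4 and 93.0 CPM under vehicle, against 79.7, 83.0 and 97.3 CPM under iD1. The groups overlapped, with a log2 fold change of -0.04 (SE 0.14, edgeR adjusted p = 0.881, 95% interval -0.35 to 0.27). Abcb1a (ENSMUSG00000040584.8, chromosome 5 from 8660077 to 8748575) measured 1.86, 3.44 and 2.91 CPM under vehicle, against 3.10, 3.10 and 4.59 CPM under iD1. Its log2 fold change was 0.38 (SE 0.27, edgeR adjusted p = 0.369, 95% interval -0.22 to 0.98), from 56 to 143 counts per library. It was 0.17 when vehicle replicate 1 or iD1 replicate 3 was left out and 0.58 when vehicle replicate 2 was. Of the 50-base words of its longest transcript 17.0% occur in other genes, mostly its near copy Abcb1b, and its exons share 553 bases with Gm42686 on the other strand, so its value is uncertain. Positions were taken from GENCODE M21 (GRCm38), in which all 10 members are protein-coding, and the sources used here do not name the build behind the counts.

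**Figure D3:**
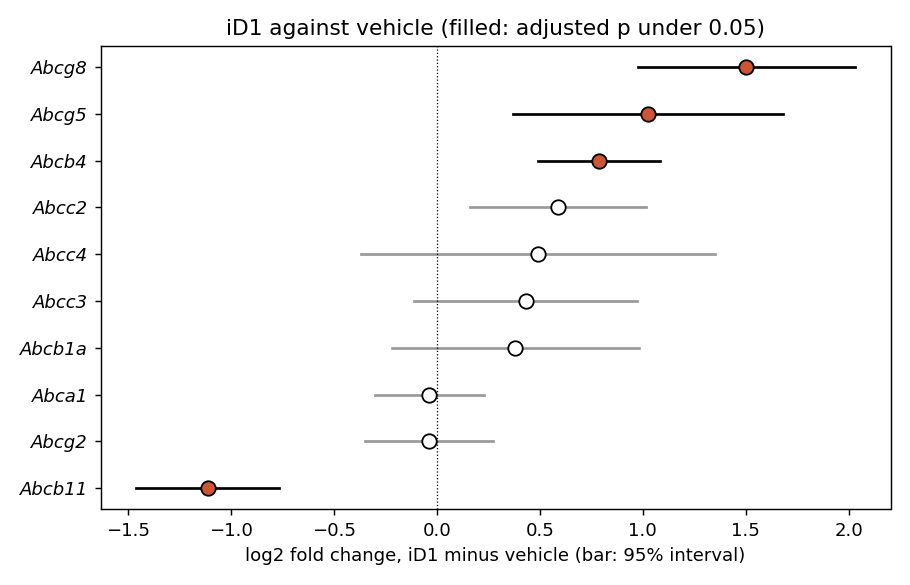
Log2 fold change (iD1 minus vehicle) of the 10 members with 95% intervals from edgeR's quasi-likelihood fit, filled where the adjusted p over all tested genes is under 0.05. Abcg8 (1.50), Abcg5 (1.03) and Abcb4 (0.79) lie above 0, Abcb11 (-1.11) lies below 0, and the intervals of Abca1 and Abcg2 are centred near 0.

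Levels of different genes were compared per kilobase of merged exons. In vehicle livers Abcb11 stood first with 63.8 ± 7.25 CPM per kilobase (SD, n = 3), followed by Abcc2 with 43.6 ± 6.66 and Abcc3 with 25.9 ± 5.43. The libraries of these 3 genes did not overlap with those of their neighbours. Abca1 (14.6 ± 0.746), Abcg5 (12.5 ± 4.01), Abcb4 (12.3 ± 0.358) and Abcg2 (10.9 ± 1.49) followed, and each overlapped with the next. Abcg8 came next with 6.89 ± 1.53 CPM per kilobase. Abcb1a (0.50 ± 0.147) and Abcc4 (0.334 ± 0.138) came last and overlapped with each other.

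In iD1 livers Abcc2 stood first with 65.6 ± 14.3 CPM per kilobase (SD, n = 3), apart from all others. Abcc3 (34.9 ± 11.5), Abcb11 (29.5 ± 4.33), Abcg5 (25.6 ± 6.52), Abcb4 (21.2 ± 2.83) and Abcg8 (19.6 ± 5.62) followed, each overlapping with the next. Abca1 (14.2 ± 0.954) and Abcg2 (10.6 ± 1.14) were below these without overlap, then Abcb1a (0.657 ± 0.157) and Abcc4 (0.479 ± 0.221). As a share of the summed level per length of the 10 genes, Abcb11 went from 33.4% in vehicle to 13.6% in iD1 livers on average, Abcc2 from 22.7% to 29.4% and Abcg8 from 3.57% to 8.70%. The order depends on the length used, also near the top in iD1 livers. With the longest transcript in place of merged exons Abcb4 was at 28.2 CPM per kilobase in vehicle and 48.7 in iD1 livers, and moved from the sixth to the fourth place in vehicle. In iD1 livers it moved from the fifth to the second place, above Abcc3 (39.7), Abcb11 (30.2) and Abcg5 (29.5) on that scale.

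**Figure D4:**
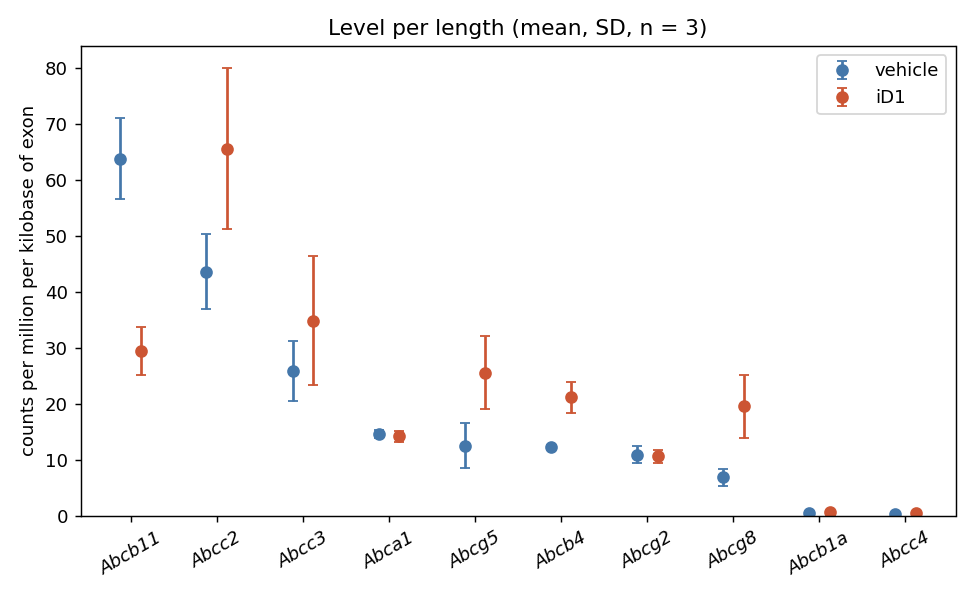
Mean level per kilobase of merged exons (CPM per kilobase, linear axis from 0) with SD over 3 libraries in vehicle (blue) and iD1 (orange), ordered by the vehicle mean. Abcb11 leads in vehicle at 63.8 and Abcc2 leads in iD1 livers at 65.6, while Abcb1a and Abcc4 stay below 1 in both groups.

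The calls among the members had mixed directions, and so had those among their relatives and over all tested genes (8.42% higher, 8.3% lower). Beside the members, the count table held 40 further genes with a symbol of ABC subfamilies A to G. Genes of the family under other symbols were not counted. Of the 40 genes 29 were tested, 3 were higher and 3 lower, with a median log2 fold change of -0.09. Abcb10, a transporter of the inner mitochondrial membrane, fell from 35.4 ± 0.890 to 20.8 ± 0.892 CPM (SD, n = 3). Abcg3 fell from 2.28 ± 0.188 to 0.648 ± 0.117 CPM and Abca2 from 27.9 ± 6.94 to 14.4 ± 1.10 CPM. Abcd4, which takes part in cobalamin release from lysosomes, rose from 8.55 ± 1.57 to 14.8 ± 0.791 CPM. These 4 calls held without each of the 6 libraries. The remaining calls were Abcf1 and Abcb8, with log2 fold changes of 0.50 and 0.47. Abcf1 kept its call only when vehicle replicate 2 or iD1 replicate 1 was the library left out, and Abcb8 lost it without any 1 library other than vehicle replicate 1. With library size only 1 was higher and 6 lower.

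Among 9 other canalicular membrane proteins 0 were higher and 3 lower, beside 8.42% and 8.3% over all tested genes. Their median log2 fold change was -0.21. The copper exporter Atp7b fell from 22.5 ± 1.88 to 11.6 ± 1.26 CPM and the aminophospholipid flippase Atp8b1 from 39.8 ± 2.46 to 20.4 ± 3.99 CPM (SD, n = 3). The water channel Aqp8 fell from 101 ± 46.0 to 12.2 ± 6.57 CPM, a call lost without iD1 replicate 3 (edgeR adjusted p = 0.0768). The partner subunit of Atp8b1, Tmem30a, measured 176 CPM on average in both groups. Of 14 trafficking and scaffold proteins of the canaliculus 1 was called: radixin (Rdx), which anchors canalicular pumps to actin, fell from 135 ± 7.26 to 94.1 ± 8.12 CPM, a call kept only when vehicle replicate 1, the unnumbered one or iD1 replicate 1 was the library left out. Upper-quartile scaling gave 2 lower, library size alone 3 lower, and DESeq2 1 higher and 1 lower. The median log2 fold change of these 14 genes was 0.01.

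Of 6 genes of bile salt uptake and basolateral export 4 were tested and 0 were called by edgeR or DESeq2. Likewise 0 had an unadjusted edgeR p under 0.05, beside 31.3% of all tested genes, of which edgeR called 16.7%. The smallest p belonged to Slco1a1, with a log2 fold change of -0.39 (edgeR adjusted p = 0.194), and the sodium-dependent uptake carrier Slc10a1 had 0.16 (adjusted p = 0.657). Their median log2 fold change was 0.12. Slc51a and Slc51b, the subunits of the basolateral bile salt exporter, were at or below 0.199 CPM on average in both groups and were not tested.

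Of 14 nuclear receptors and factors that control transporters 5 were higher and 1 lower, beside 8.42% and 8.3% over all tested genes. Their median log2 fold change was 0.15. The lower one was Nfe2l2, which encodes NRF2, with a log2 fold change of -0.52 (edgeR adjusted p = 0.0454). Nr1h2 (LXR beta) was among the higher ones, with 0.46 (edgeR adjusted p = 0.0475). With 1 library left out, Nfe2l2 kept its call in 2 of the 6 fits and Nr1h2 in 1. The xenobiotic receptor Nr1i2 (PXR) rose from 54.5 ± 10.9 to 92.9 ± 10.1 CPM, Ahr from 27.8 ± 8.57 to 60.0 ± 12.4 CPM, Ppara from 55.2 ± 5.21 to 85.2 ± 18.3 CPM and the hepatocyte factor Hnf4a from 424 ± 116 to 730.4 ± 94.8 CPM (SD, n = 3). The Nr1i2 call held in 5 of the 6 fits with 1 library left out, that of Ahr in 3, and those of Ppara and Hnf4a in 1 each. Nr1h2, Ppara and Hnf4a lost their calls with library size only. Without iD1 replicate 3 edgeR called 0 of the 14 genes, where the adjusted p of Nr1i2 was 0.0503. The number higher was 2 without vehicle replicate 1, vehicle replicate 2 or iD1 replicate 2, and 1 without the unnumbered vehicle replicate. With library size only 2 were higher and 3 lower. The bile acid receptor Nr1h4 (FXR) had a log2 fold change of -0.28 (edgeR adjusted p = 0.138), its target Nr0b2 had 0.01 (adjusted p = 0.983), and the oxysterol receptor Nr1h3 (LXR alpha) had -0.28 (adjusted p = 0.129). These 3 were chosen after their values were seen.

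**Figure D5:**
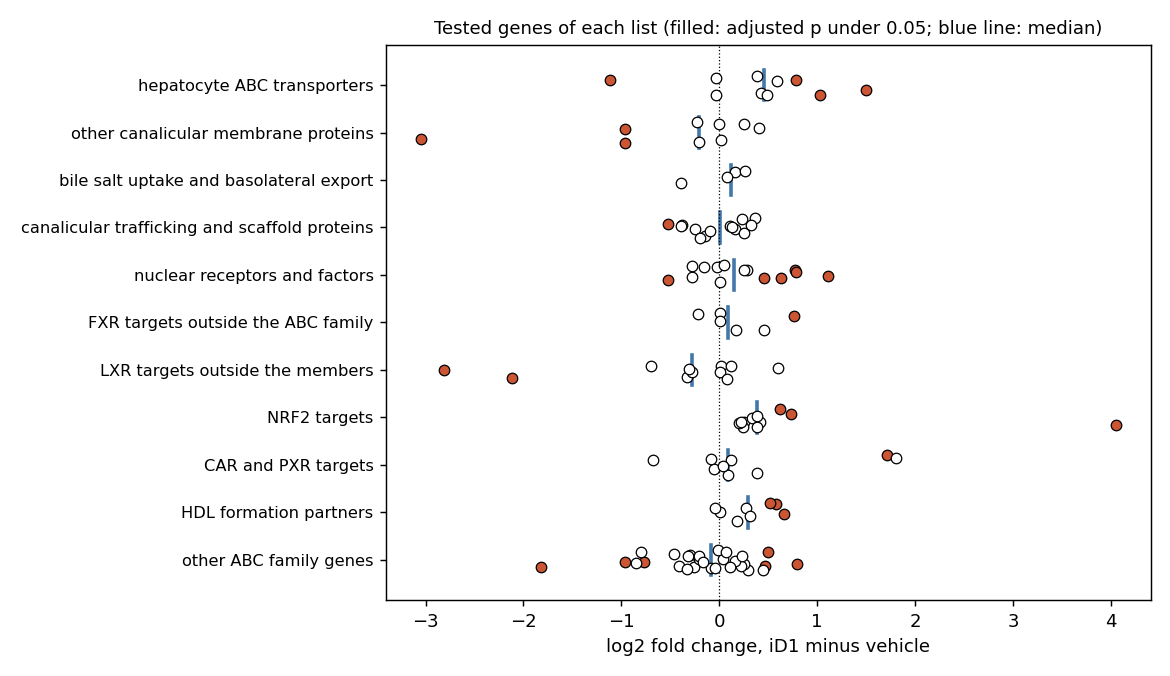
Log2 fold change (iD1 minus vehicle) of every tested gene in the member list and 10 related lists, filled where the edgeR adjusted p is under 0.05, with list medians as blue lines. Calls lie on both sides of 0 among the members and among the other ABC family genes, and the 2 called LXR targets lie at -2.12 and -2.81.

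Of 8 FXR targets outside the ABC family 6 were tested, with a median log2 fold change of 0.09. Among these 1 was higher, beside 8.42% over all tested genes. It was Fetub, from 245 ± 28.0 to 416 ± 13.3 CPM. When iD1 replicate 1 was left out, 1 of these targets was called lower beside 1 higher, and DESeq2 called 2 higher. The median log2 fold change of 11 LXR targets outside the members was -0.28. Of these 0 were higher and 2 lower, beside 8.42% and 8.3% over all tested genes. The lower ones were Srebf1, from 245 ± 40.1 to 56.5 ± 13.3 CPM, and Cyp7a1, from 278 ± 103 to 39.7 ± 12.4 CPM (SD, n = 3). Leaving out iD1 replicate 1 gave 4 lower, leaving out vehicle replicate 2 gave 1 higher beside 2 lower, and scaling by library size alone gave 3 lower. Abcg5, Abcg8 and Abca1 are themselves known LXR targets, and their log2 fold changes of 1.03, 1.50 and -0.04 stand beside -0.32 for Abcg1 (edgeR adjusted p = 0.397).

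Of 11 NRF2 targets 3 were higher and 0 lower (8.42% and 8.3% over all tested genes), with a median log2 fold change of 0.38. Srxn1 rose from 25.7 ± 0.702 to 42.6 ± 5.29 CPM, Hmox1 from 13.1 ± 3.03 to 218 ± 131 CPM and Nqo1 from 4.41 ± 0.835 to 6.80 ± 0.759 CPM (SD, n = 3). Leaving out iD1 replicate 1 gave 5 higher genes, leaving out vehicle replicate 2 gave 2, and each of the other libraries 1. The Srxn1 call held in all 6 of these fits, the Nqo1 call in 2 and the Hmox1 call in 1. Nqo1 also lost its call with upper-quartile factors or library size only, which each left 2 higher. Of 9 CAR and PXR targets 1 was higher, with a median log2 fold change of 0.08: the P450 reductase Por, from 256 ± 98.3 to 840.1 ± 111 CPM. Cyp2b10 had the largest log2 fold change of the list, 1.80, from 14.1 ± 13.3 to 49.4 ± 19.9 CPM, but was not called (edgeR adjusted p = 0.264). The largest fall was that of Cyp2c55, at -0.67 (edgeR adjusted p = 0.146). Of 8 HDL formation partners of Abca1 3 were higher and 0 lower, with a median log2 fold change of 0.29. Lcat rose from 194 ± 18.5 to 307 ± 18.0 CPM, Apoa1 from 5915 ± 405 to 8859 ± 421 CPM, and Scarb1 by a log2 fold change of 0.52 (SE 0.15). The Apoa1 call was lost without any 1 of the 6 libraries. Of these partners 1 was higher when vehicle replicate 1 or iD1 replicate 3 was left out, 0 when the unnumbered vehicle replicate was, and 1 was higher and 1 lower when iD1 replicate 1 was. Scaling by upper quartiles left 1 and by library size alone 0.

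Markers of other cell types are given here for the whole lists. The 5 neutrophil transcripts had a summed level of 0.233 to 0.398 CPM in vehicle against 1.97 to 9.60 CPM in iD1 libraries, and the defining genes Ly6g and Elane were at or near 0 in both groups. Retnlg, S100a8 and S100a9 passed the low-count filter only through the iD1 libraries, so no count of calls is given for them, and with a filter at 1 CPM in 3 libraries none of the 5 could be tested. Among 6 cholangiocyte markers Krt19, which passed the filter only through the vehicle libraries, was lower (log2 fold change -2.66) and Sox9 higher (0.85, a call kept only without iD1 replicate 3 when 1 library was left out), with summed levels of 22.9 to 36.6 CPM in vehicle and 28.0 to 45.6 CPM in iD1 libraries. Of 6 stellate cell markers Lrat was lower (log2 fold change -1.77), with sums of 153 to 211 and 147 to 199 CPM. None of 6 Kupffer cell markers was called by edgeR (74.3 to 131 and 70.5 to 102 CPM). The same held for 6 endothelial markers (125 to 171 and 125 to 152 CPM). An unadjusted edgeR p under 0.05 was found for 3 and 4 of them, beside 31.3% of all tested genes, and DESeq2 called 1 and 2. Among the 3, Adgre1 and Cd68 were lower and Marco higher. Among the 4, Stab2, Kdr and Clec4g were lower and Lyve1 higher. Leaving out vehicle replicate 1, or scaling by library size alone, gave 2 lower Kupffer cell markers, upper-quartile scaling 1 lower, and no low-count filter 1 higher. Of the endothelial markers 1 was lower when iD1 replicate 2 or 3 was left out, under either of those scalings and under either other filter. Limma-voom called 1 of them higher and 1 lower, and the non-robust fit 1 higher. Of 4 erythroid markers 3 were tested and 0 were called by edgeR, where 2 had an unadjusted p under 0.05 and DESeq2 called 1 (140.1 to 219.8 and 196 to 239 CPM). Leaving out vehicle replicate 1 gave 2 higher erythroid calls and leaving out iD1 replicate 1 gave 1. The lymphocyte markers were too low to test (0.771 to 2.39 and 0.742 to 1.33 CPM). Of 5 hepatocyte markers only Apoa1 was called, higher. The part of other cell types in the transporter results was not tested.

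For each called member, the 2 other genes with the most similar profile over the 6 libraries, predicted symbols left out, were found by the root mean square difference of centred log2 CPM. For Abcb11 these were Ccdc85c (0.0669 log2 units) and L3mbtl3 (0.0686), and for Abcb4 they were Josd1 (0.0526) and Fnip1 (0.0566). For Abcg5 they were Tns1 (0.132) and Atp10d (0.136), and for Abcg8 Slc25a34 (0.148) and Bhlhb9 (0.175). Abcg5 and Abcg8 were not among each other's 2 nearest genes.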

How the data were processed

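Liver RNA from 3 vehicle and 3 iD1 samples was extracted with TRIzol and RNeasy and sequenced from stranded mRNA libraries, per the labels' protocols. The deposited values are the authors' estimated counts for each gene and library, without depth scaling. Aligner, quantifier, build and annotation: not given in the sources used here. Per library, between 22.6% and 27.7% of values were not whole, and all were rounded before testing. One vehicle column is numbered unlike any vehicle title and entered as the unnumbered vehicle replicate. Symbols were found for 34582 of 34866 identifiers, and 99.4% of identifiers matched GENCODE M21 without version. No pair of libraries in a group agreed within sampling noise.

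Genes were kept by filterByExpr (minimum count 10, minimum total 15), scaled by TMM and compared with edgeR 4.0.16 in R 4.3.3 (robust quasi-likelihood F test, two-sided, Benjamini-Hochberg adjustment over 13718 genes, threshold 0.05). Standard errors were computed as the absolute log2 fold change over the root of F. The scripts were tested on simulated data. Alternatives were other scalings, filters, DESeq2 1.42.0, limma-voom (limma 3.58.1), thinning to the smallest total, a replicate block and leaving out each library. The members and lists were chosen with earlier results of these data known. All members are named, and of each other list up to 4 called genes by smallest p, or up to 2 as values where none was called. Genes named beyond that rule were chosen after their values were seen.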

Additional observations from a re-analysis of the deposited data

How the results depend on the processing

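Abcb11 stayed called lower and Abcg8 called higher over 11 alternatives and over the 6 that leave out 1 library. Those 11 keep the design or use the 4 libraries numbered 1 or 2. The log2 fold changes of Abcb11 and Abcg8 ran from -1.31 to -1.02 and from 1.23 to 1.68. Abcb4 kept its direction in all and lost its call in fits of 4 libraries only. Abcg5 was called without 1 of the 6 libraries left out in turn and under 6 of the other 11. Leaving out 1 library gave 3 to 4 called members, 12 to 26 called genes over the related lists (26 with all libraries) and 1212 to 2574 called genes in all (2293 with all libraries). The small log2 fold changes of Abcg2 and Abca1 ran from -0.15 to 0.042 and from -0.079 to 0.020, that of Abcg2 turning without vehicle replicate 1 or iD1 replicate 1 (0.021) and that of Abca1 without iD1 replicate 3. The log2 ratio of Abcc4 to Abcc2 differed by -0.25 to 0.13, turning without vehicle replicate 2 or iD1 replicate 2. The cause was not tested. Only numbers 1 and 2 occur in both groups. With the replicate block on those 4 libraries 772 genes, 2 members (Abcb11 and Abcg8) and 11 list genes were called. Without the block, an alternative chosen after seeing the data, the same 4 libraries gave 521, 2 and 5, and Abcc4 had a log2 fold change of -0.022. The labels state no pairing, so the numbers were not taken as pairs. Deviations from group means correlated at 0.156 for number 1 and -0.125 for number 2, which 4 libraries are too few to settle. Depth limits Abcb1a and Abcc4, with at most 143 counts in a library.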
